A study of Mus musculus with 12 samples.

Results

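Mbp, Mal, Pmp2, Pmp22 and Gjc3 encode proteins of the myelin membrane and of glial gap junctions, and they were followed across 12 microarrays of sorted mouse bone cells. The 5 genes were chosen from a list drawn up with earlier results of these arrays known, and each was read from the probe sets that carry its symbol and no other. Their levels across the sorted populations are therefore given as a description with no test. They have 14 such probe sets, 8 of Mbp, 2 each of Mal and Gjc3, and 1 each of Pmp2 and Pmp22, and all 5 genes are among the 12516 tested of 18193 with a single-symbol probe set.

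The cells came from limb bones, skull cap, scapula, vertebrae and ribs of JUN inducible mice, in which doxycycline in the mother's drinking water switches JUN on in the pups. The 6 groups hold 2 arrays each. They are SSC JUN and SSC -JUN, CSP JUN and CSP -JUN, and Thy JUN and Thy -JUN, where SSC, CSP and Thy are sorted osteoprogenitor populations and JUN stands for 2 days of induction. What the -JUN animals lacked, the doxycycline or an allele, is not said in the labels, and neither is the age of the pups. The titles name 5 mice, of which mice 4 and 7 carry JUN and mice 3, 3b and 10 carry -JUN, so an arm rests on 2 or 3 animals and most animals gave several arrays.

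Myelin is the stack of membrane that a Schwann cell in a nerve of the body, or an oligodendrocyte in the brain, wraps around an axon. Bone is supplied by nerves in its periosteum and marrow, and Schwann cells accompany them. In mouse Schwann cells the transcription factors Sox10 and Egr2 switch on myelin genes, and c-Jun, the product of Jun, is known to oppose this and to mark the repair state after nerve injury. Pmp22 is transcribed widely outside glia, in fibroblasts among other cells.

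Sequences before the transcription starts of Mal, Gjc3 and Pmp22 are shown because the first 2 genes differed widely in level between the populations and Pmp22 hardly did. Each window runs from 250 bases before a start to 50 after it, 5′ to 3′ on the strand of the gene, and was taken from RefSeq on build GRCm38.p6. Mal lies at chr2:127656646-127656945 on the minus strand, Gjc3 at chr5:137963049-137963348 on the minus strand, and Pmp22 starts 1 and 4 at chr11:63128732-63129031 and chr11:63132553-63132852 on the plus strand. Capitals mark a match to GTGGGNG, a core of the sites bound by Egr proteins.
Mal: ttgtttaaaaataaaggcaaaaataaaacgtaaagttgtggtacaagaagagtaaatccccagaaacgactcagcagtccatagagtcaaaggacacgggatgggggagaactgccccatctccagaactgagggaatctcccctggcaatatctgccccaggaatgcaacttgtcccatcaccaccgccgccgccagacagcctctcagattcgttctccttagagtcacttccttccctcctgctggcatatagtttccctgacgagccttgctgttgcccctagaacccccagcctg
Gjc3: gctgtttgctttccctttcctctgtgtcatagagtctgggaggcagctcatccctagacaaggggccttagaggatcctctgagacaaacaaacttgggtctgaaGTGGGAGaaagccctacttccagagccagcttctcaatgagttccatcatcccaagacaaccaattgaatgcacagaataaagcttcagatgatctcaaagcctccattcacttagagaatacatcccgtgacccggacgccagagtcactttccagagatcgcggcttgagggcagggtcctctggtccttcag
Pmp22 start 1: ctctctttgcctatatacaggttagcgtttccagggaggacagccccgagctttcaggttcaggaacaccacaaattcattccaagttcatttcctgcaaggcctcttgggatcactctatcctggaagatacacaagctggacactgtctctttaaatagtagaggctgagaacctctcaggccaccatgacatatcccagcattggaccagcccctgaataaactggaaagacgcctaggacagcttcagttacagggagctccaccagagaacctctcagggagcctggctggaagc
Pmp22 start 4: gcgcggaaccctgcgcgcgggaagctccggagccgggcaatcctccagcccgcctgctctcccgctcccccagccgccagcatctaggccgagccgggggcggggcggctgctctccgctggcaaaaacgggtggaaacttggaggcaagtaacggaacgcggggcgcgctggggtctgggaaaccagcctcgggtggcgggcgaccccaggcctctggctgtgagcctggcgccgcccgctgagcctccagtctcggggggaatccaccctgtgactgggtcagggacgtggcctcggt

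The table held 6 windows for these 3 genes, 4 of them of Pmp22, and Pmp2 was not matched in it. The share of G and C was 51.0% in the Mal window and 50.7% in the Gjc3 window. Across the 4 Pmp22 windows it was 50.7% at start 1, 60.0% at start 2, 66.3% at start 3 and 72.3% at start 4. In rat and human, Pmp22 is read from an upstream promoter in myelinating Schwann cells and from a downstream promoter in many tissues, and which of these windows corresponds to either was not determined here. Searched on both strands, TGANTCA, the element bound by AP-1 factors such as JUN, had 0 matches in the 6 windows, as did ACAAAG and ACAATG, the cores bound by Sox proteins. GTGGGNG had 1 match, GTGGGAG in Gjc3, whose first base lies at -145 from the start. Of 32851 promoter windows of the same length, 7.81% held TGANTCA, 18.7% ACAAAG, 12.6% ACAATG and 31.6% GTGGGNG, so these letters are frequent, and a window without them says nothing about binding elsewhere.

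Surface markers were read as a check of the sort. Thy1, the antigen that names the Thy sort, lay between 12.80 and 13.30 in Thy arrays, against 7.28 to 9.63 in the other arrays. Eng, another surface marker, was lower in SSC than in CSP at -1.57 ± 0.24 (limma, adjusted p = 0.013). It was also lower in SSC than in Thy at -1.54 ± 0.24 (limma, adjusted p = 0.029). Both calls were lost with each mouse as a block. They held in 9 and 6 of the 12 fits that left out 1 array. The 10 measured osteoprogenitor and bone markers averaged between 11.38 and 13.15 in every array. Jun did not separate the arms in the labelled direction, with 12.13 to 13.18 in JUN arrays against 12.06 to 13.65 in -JUN arrays. In CSP both JUN arrays, at 12.92 and 12.82, lay below both -JUN arrays, at 13.37 and 13.24, while in SSC and Thy the arms overlapped. Whether the Jun probe set reads the induced transcript is not known, so the arms below are those of the labels. Xist, which silences an X chromosome in females, had 12.49 to 13.20 in the 3 arrays of mouse 3, against 6.11 to 7.29 in the others. High Xist was thus found in the -JUN arm alone, in 1 array of each population, and the arms are not balanced for it. Its part in the differences between arms was not tested. All levels are log2 values, on which a difference of 1 is a doubling, and the median over the probe sets of an array lay between 7.65 and 7.76. As each array holds RNA of many cells, fewer cells of a type and less RNA per cell cannot be told apart in any value below.

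Mbp encodes myelin basic protein, which holds the inner faces of the myelin membrane together. It had 11.81 and 12.43 in SSC JUN arrays, against 12.48 and 13.01 in SSC -JUN arrays. In CSP it had 7.29 and 8.41 in JUN arrays, against 7.95 and 8.20 in -JUN arrays. In Thy it had 9.05 and 10.81 in JUN arrays, against 12.76 and 10.75 in -JUN arrays. All SSC arrays stood above all CSP arrays, the 2 SSC arms did not overlap, and the Thy array of mouse 3 reached the SSC range. Over both arms Mbp averaged 12.43 ± 0.49 in SSC, 7.96 ± 0.49 in CSP and 10.84 ± 1.52 in Thy (SD, n = 4 each). SSC exceeded CSP by 4.47 ± 0.52 (SE of the fit), which is 22.1-fold, and exceeded Thy by 1.59 ± 0.52, which is 3.02-fold. CSP minus Thy was -2.88 ± 0.52. Mbp lay above the array median in 11 of the 12 arrays, all but CSP JUN replicate 1.

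**Figure D1:**
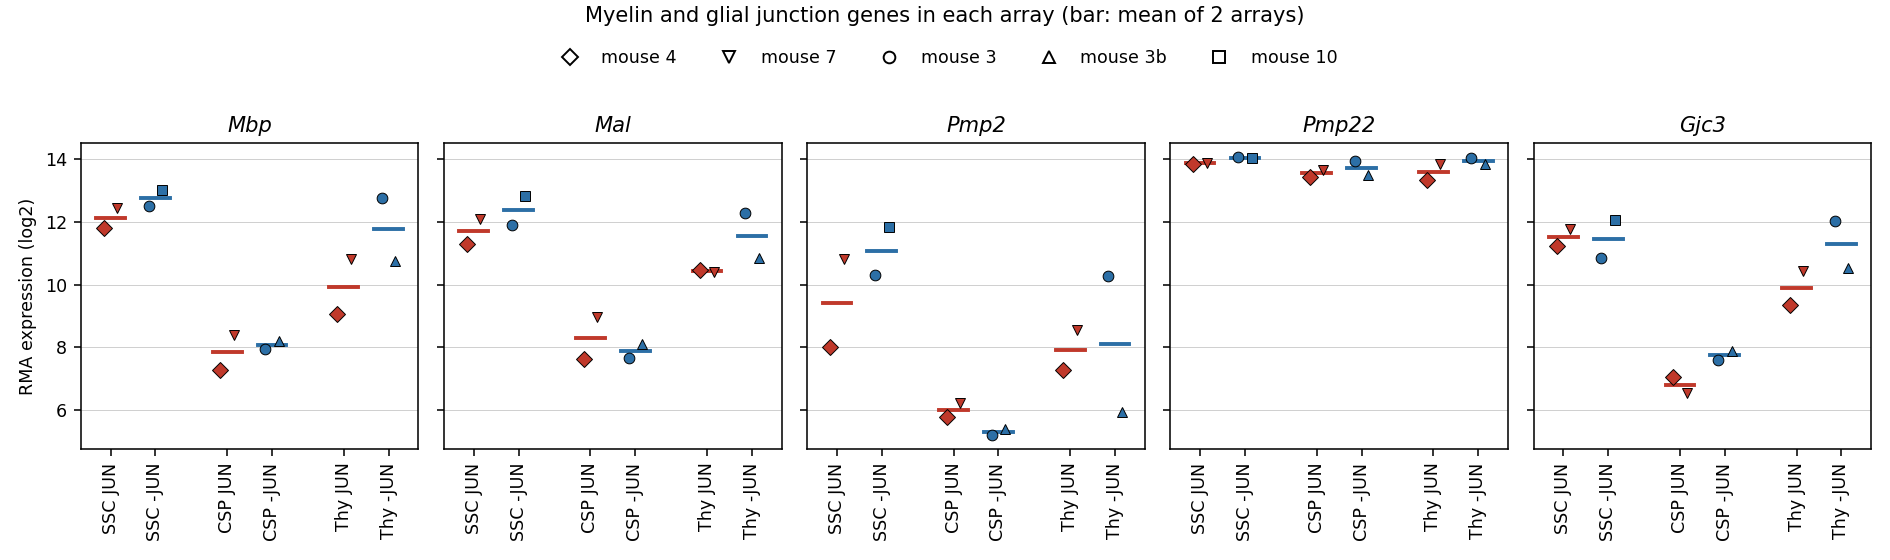
Log2 expression of the tested probe set of each gene (vertical axis) in the 12 arrays, by population and arm. Each symbol is 1 array, its shape gives the mouse, red is JUN and blue is -JUN, and bars are means of 2 arrays. Mbp, Mal, Pmp2 and Gjc3 lie lowest in CSP, while Pmp22 stays between 13.31 and 14.05 in all arrays.

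Mal encodes a lipid raft protein with 4 membrane spans that takes part in sorting proteins to the myelin membrane and to the apical side of epithelia. Its values were 11.29 and 12.09 in SSC JUN arrays, against 11.90 and 12.80 in SSC -JUN arrays. They were 7.62 and 8.96 in CSP JUN arrays, against 7.67 and 8.09 in CSP -JUN arrays. In Thy they were 10.45 and 10.41 in JUN arrays, against 12.28 and 10.83 in -JUN arrays. No CSP array reached any array of the other populations, and in Thy both JUN arrays stood below both -JUN arrays. Mal averaged 12.02 ± 0.62 in SSC, 8.09 ± 0.62 in CSP and 10.99 ± 0.88 in Thy (SD, n = 4 each). The difference of SSC to CSP was 3.93 ± 0.43 (15.3-fold), that of SSC to Thy 1.03 ± 0.43 (2.04-fold) and that of CSP to Thy -2.91 ± 0.43. Mal lay above the array median in 10 of the 12 arrays, and the rest were CSP arrays, so its fold of SSC to CSP is partly taken against dim readings.

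Pmp2 encodes the P2 protein of peripheral myelin, a fatty acid binding protein of Schwann cells. It was read at 8.03 and 10.80 in SSC JUN arrays, against 10.31 and 11.83 in SSC -JUN arrays. CSP JUN arrays had 5.80 and 6.24, against 5.22 and 5.41 in CSP -JUN arrays. Thy JUN arrays had 7.27 and 8.56, against 10.27 and 5.94 in Thy -JUN arrays. Pmp2 lay above the array median in 6 of the 12 arrays, all 4 of SSC and 1 of each Thy arm, and its CSP values are those of a dim probe set. The 2 Thy -JUN arrays, of mice 3 and 3b, lay farther apart than any other pair of replicates of these 5 genes. It averaged 10.25 ± 1.61 in SSC, 5.67 ± 0.45 in CSP and 8.01 ± 1.85 in Thy (SD, n = 4 each). SSC minus Thy was 2.24 ± 0.88 (4.71-fold). SSC minus CSP was 4.58 ± 0.88 and CSP minus Thy -2.34 ± 0.88, with no fold given because every CSP value lay below the array median.

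Pmp22 encodes a protein with 4 membrane spans of compact peripheral myelin, whose gene is duplicated in the commonest inherited neuropathy of humans. Its levels were 13.84 and 13.88 in SSC JUN arrays, against 14.05 and 14.01 in SSC -JUN arrays. They were 13.43 and 13.65 in CSP JUN arrays, against 13.92 and 13.48 in CSP -JUN arrays. Thy JUN arrays had 13.31 and 13.83, against 14.00 and 13.84 in Thy -JUN arrays. The 12 arrays lay between 13.31 and 14.05, the JUN arrays were below the -JUN arrays without overlap in SSC and Thy, and the 3 populations overlapped. Pmp22 averaged 13.94 ± 0.10 in SSC, 13.62 ± 0.22 in CSP and 13.75 ± 0.30 in Thy (SD, n = 4 each). The difference of SSC to CSP was 0.33 ± 0.19 (1.25-fold), that of SSC to Thy 0.20 ± 0.19 (1.15-fold) and that of CSP to Thy -0.13 ± 0.19.

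Gjc3 encodes a connexin, a channel subunit of gap junctions and hemichannels, found in mouse Schwann cells and oligodendrocytes. SSC JUN arrays had 11.24 and 11.76, against 10.86 and 12.07 in SSC -JUN arrays. CSP JUN arrays had 7.07 and 6.56, against 7.60 and 7.90 in CSP -JUN arrays. Thy JUN arrays had 9.35 and 10.43, against 12.02 and 10.53 in Thy -JUN arrays. The arms overlapped in SSC and stood apart in CSP and Thy, where both JUN arrays were the lower ones. Gjc3 averaged 11.48 ± 0.54 in SSC, 7.28 ± 0.59 in CSP and 10.58 ± 1.10 in Thy (SD, n = 4 each). SSC minus CSP was 4.20 ± 0.42 (18.4-fold), SSC minus Thy 0.90 ± 0.42 (1.87-fold) and CSP minus Thy -3.30 ± 0.42. Gjc3 lay above the array median in 9 of the 12 arrays, and the rest were CSP arrays. Its fold of SSC to CSP is therefore taken against mostly dim readings.

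The order of the population means was the same for all 5 genes, with SSC above Thy and Thy above CSP. Mbp, Mal, Pmp2 and Gjc3, 4 of 5, had every SSC array above every CSP array, beside 2.2% of all genes tested. As such differences may have been known when the genes were put forward, nothing is read from that share. No member separated SSC from Thy in either direction, beside 2.41% of all genes with SSC above and 5.18% with SSC below. CSP lay below Thy without overlap for Mbp, Mal and Gjc3, 3 of 5, beside 4.29% of all genes, while Pmp2 and Pmp22 overlapped. The gap between the lowest SSC and the highest CSP array was 3.40 for Mbp, 2.96 for Gjc3, 2.32 for Mal and 1.79 for Pmp2. Poly-A control transcripts, added to the RNA before labelling, averaged 8.08 to 10.54 in SSC arrays, 9.38 to 11.04 in CSP arrays and 10.63 to 11.52 in Thy arrays over 27 probe sets, and their part in these differences was not tested.

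Differences were also read within mice that gave several populations. In the 3 mice with both, SSC minus CSP was 4.02 to 4.53 for Mbp, 3.12 to 4.24 for Mal, 2.23 to 5.10 for Pmp2, 3.26 to 5.21 for Gjc3 and 0.12 to 0.42 for Pmp22. CSP minus Thy, in 4 mice, was -4.81 to -1.76 for Mbp, -4.61 to -1.44 for Mal, -5.05 to -0.53 for Pmp2, -4.42 to -2.28 for Gjc3 and -0.37 to 0.12 for Pmp22. SSC minus Thy was negative in mouse 3 for Mbp at -0.28, Mal at -0.37 and Gjc3 at -1.16, and positive in mice 4 and 7 for each of these. For Pmp2 it was 0.04 to 2.24 and for Pmp22 0.04 to 0.54, positive in all 3 mice. The titles of the SSC arrays of mice 3, 7 and 10 carry a date, and no title of another array does. What the date marks is not said. Its part in the differences of SSC to CSP and Thy, and between the SSC arms, was not tested. For mice 3 and 7 the labels therefore do not settle that the SSC array and the others came from the same animal.

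The probe sets of a gene were compared for their pattern, since each reads another stretch of the transcript. Of the 14, 11 lay above the array median in at least 2 arrays, and 3 did not. The 6 of Mbp that passed had SSC minus CSP between 1.85 and 4.91, SSC minus Thy between 0.83 and 1.59, and CSP minus Thy between -3.58 and -1.02. The smallest of each was that of 1451961_a_at, whose 12 values ran from 7.55 to 10.45. These 6 correlated with the tested probe set 1436201_x_at at 0.903 or more over the 12 arrays. The other 2 of Mbp, 1425263_a_at and 1425264_s_at, ran from 5.70 to 7.28 and from 6.20 to 7.78, with SSC minus CSP at 0.30 and -0.22. The second probe set of Mal, 1417275_at, showed SSC minus CSP of 5.11 and CSP minus Thy of -4.20, both wider than its tested probe set, 1432558_a_at, at 3.93 and -2.91. Gjc3 was read by 1422042_at, and its other probe set 1445523_at stayed between 4.92 and 5.35 except in Thy JUN replicate 1, at 7.51. Pmp2 rests on 1458193_at and Pmp22 on 1417133_at alone.

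**Figure D2:**
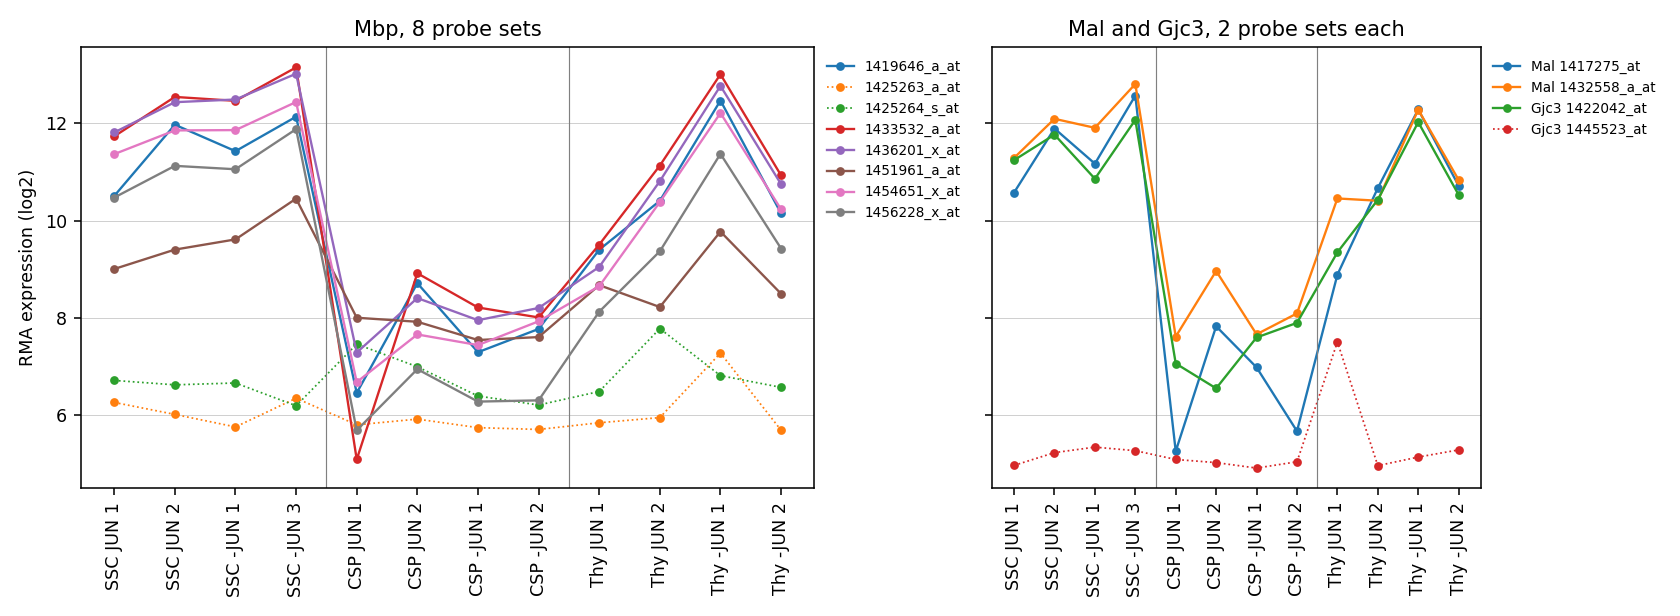
Log2 expression (vertical axis) of all probe sets of Mbp (left) and of Mal and Gjc3 (right) in the 12 arrays. Lines join values of a probe set, and dotted lines are those that did not lie above the array median in at least 2 arrays. The 6 solid Mbp lines and both Mal lines lie lowest in CSP on average, and the dotted lines stay low in nearly all arrays.

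The question of the series, what 2 days of JUN induction do, was asked of each gene within each population and on average. No member passed in limma after Benjamini-Hochberg adjustment over all genes, nor did any of the 12516 genes (0%), with 813 in SSC, 288 in CSP, 380 in Thy and 1569 on average at an unadjusted p under 0.05. The intervals below are 95% intervals of the fit, with 2 arrays in each group. In Thy, Mbp stood at -1.83 ± 0.71 (interval -3.40 to -0.25, adjusted p = 0.985), Gjc3 at -1.39 ± 0.57 (-2.66 to -0.12, adjusted p = 0.985) and Mal at -1.12 ± 0.57 (-2.40 to 0.15, adjusted p = 0.985). Pmp22 was at -0.35 ± 0.30 and Pmp2 at -0.19 ± 1.24, which allows -2.95 to 2.57. Leaving out Thy -JUN replicate 1, of mouse 3, the only mouse with high Xist, moved Mbp to -0.82, Mal to -0.40, Gjc3 to -0.64 and Pmp2 to 1.97.

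In SSC the differences were -0.63 ± 0.71 for Mbp, -0.67 ± 0.57 for Mal, -1.66 ± 1.24 for Pmp2, -0.17 ± 0.30 for Pmp22 and 0.04 ± 0.57 for Gjc3. Their adjusted p lay between 0.708 and 0.984 in limma. Leaving out SSC JUN replicate 2 put Mbp at -0.94 and Pmp2 at -3.04, while leaving out SSC JUN replicate 1 put Mbp at -0.32 and Pmp2 at -0.27. Mal ran from -1.12 (without SSC -JUN replicate 1) to -0.22 (without SSC -JUN replicate 3). In CSP, where Mbp, Mal, Pmp2 and Gjc3 lay between 5.22 and 8.96, the differences were -0.23 ± 0.71 for Mbp, 0.41 ± 0.57 for Mal, 0.70 ± 1.24 for Pmp2, -0.16 ± 0.30 for Pmp22 and -0.94 ± 0.57 for Gjc3, each with an adjusted p of 0.995. The Pmp2 value compares readings that were below the array median in all 4 CSP arrays. Averaged over the populations, Mbp stood at -0.90 ± 0.41 (interval -1.81 to 0.01), Gjc3 at -0.76 ± 0.33 (-1.49 to -0.03), Mal at -0.46 ± 0.33, Pmp2 at -0.38 ± 0.72 and Pmp22 at -0.23 ± 0.17. Adjusted p for these averages was 0.396 for Mbp and Gjc3 and 0.496 to 0.800 for the others in limma. The fit behind these averages and their intervals took arrays of a mouse as independent, although most mice gave several. A difference of the JUN effect between populations passed for no member (limma, adjusted p = 0.9997 for each) and for 0 of all genes (0%), with 144 at an unadjusted p under 0.05.

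**Figure D3:**
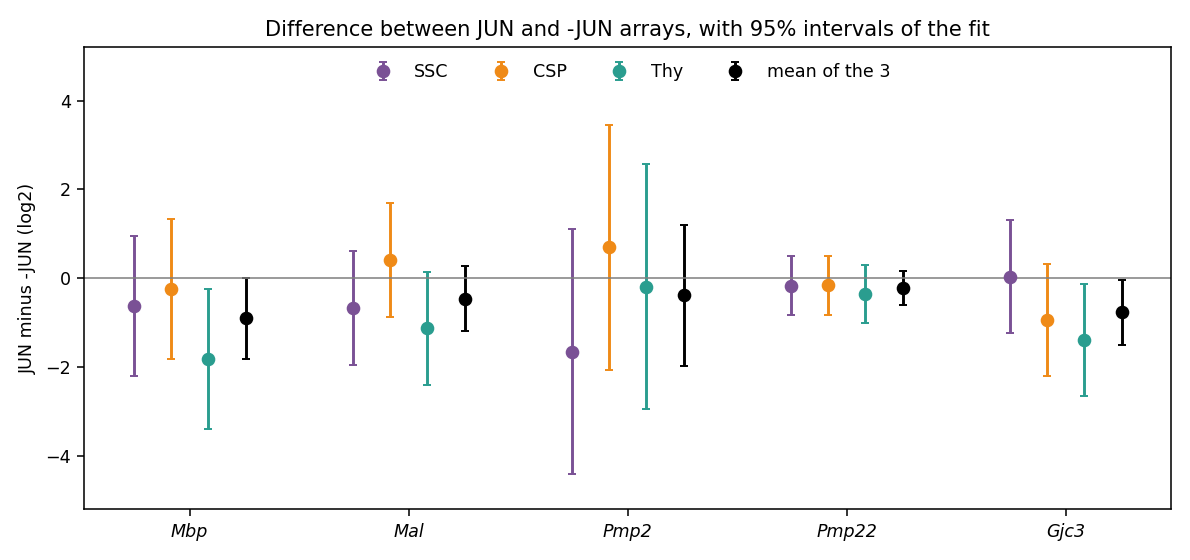
JUN minus -JUN difference (vertical axis, log2) of each gene in SSC, CSP and Thy and for the mean of the 3, with 95% intervals of the limma fit. All 5 points lie below 0 in Thy and for the mean, and most intervals cross 0.

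Beside the tests, the direction of the members was read against that of all genes. JUN arrays had the lower mean for 4 of 5 members in SSC (43.7% of all genes), 3 of 5 in CSP (43.0% of all genes) and 5 of 5 in Thy (46.4% of all genes). The median difference of the members was -0.63 in SSC (0.08 over all genes), -0.16 in CSP (0.07 over all genes) and -1.12 in Thy (0.04 over all genes). Arrays of the arms did not overlap, with JUN lower, for Mbp and Pmp22 in SSC (2 of 5, beside 15.7% of all genes), Gjc3 in CSP (1 of 5, beside 11.9%) and Mal, Pmp22 and Gjc3 in Thy (3 of 5, beside 10.8%). JUN was higher without overlap for Pmp2 in CSP alone (1 of 5, beside 19.3%), where its 4 values were all below the array median and nothing is read from their order, and for no member in SSC (beside 22.7%) or Thy (beside 17.9%). Because the members move together from array to array, these counts are not independent of each other. Poly-A controls were brighter in the JUN arrays of SSC, at 9.39 and 10.54 against 8.08 and 8.65, and of CSP, at 10.63 and 11.04 against 9.38 and 10.18, and their part in the differences was not tested.

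How far the members moved together was described by correlation over the 12 arrays, which share the population differences and a common normalisation. Pearson's r was 0.967 between Mbp and Mal, 0.958 between Mbp and Gjc3, 0.941 between Mal and Gjc3 and 0.901 between Mbp and Pmp2. Pmp22 correlated with the others at 0.608 to 0.752. After subtracting the mean of each population, r was 0.816 between Mbp and Mal, 0.795 between Mbp and Gjc3 and 0.759 between Mbp and Pmp22, and it was lowest between Pmp2 and Pmp22 at 0.323. The mean of the 5 standardised levels ranked SSC -JUN replicate 3 first at 1.26, Thy -JUN replicate 1 second at 1.04, and the 4 CSP arrays last at -1.32 to -0.85. In that ranking Thy JUN replicate 1, at -0.60, stood next to the CSP arrays.

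Among the genes tested, those with the pattern most like each member were named by Pearson's r over the 12 arrays. Members and genes with provisional names, such as Gm numbers and Rik names, were left out of this ranking. Mag, an adhesion protein of the innermost myelin layer, was nearest to Mbp (r = 0.969) and to Mal (r = 0.977), followed by Bcas1 and Gatm for Mbp and by Egfl8 and Cnp for Mal. Nearest to Pmp2 was Nipal1 (r = 0.972), then Ugt8a, the enzyme that makes galactosylceramide, and Gas2l3. Gjc3 was followed most closely by Ednrb, an endothelin receptor (r = 0.977), then Plekhb1 and Itga6, a laminin receptor subunit. Pmp22 had Hsd17b11 at 0.915, Trim13 and Zfp28, none of which was nearest to another member. Nearest to the mean of the 5 were Gatm, Mag, Bcas1, Gas2l3, Arhgap19, Gpm6a, Ugt8a, Ednrb, Pllp and Sox2, with r between 0.927 and 0.968. Sox2, a transcription factor of immature Schwann cells among other cells, averaged 9.52 in SSC, 5.14 in CSP and 8.08 in Thy.

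The lists below were drawn up with earlier results of these data known, so nothing is read from the share of their genes that passed. Other genes of myelin and its paranodes, 26 without the members, were listed, 21 had a single-symbol probe set and 17 were tested. Past the threshold, SSC exceeded CSP for 4 of them and fell below it for 0, beside 0.384% of all genes tested with SSC higher. These were Mag at 3.58 ± 0.51, Cadm4, an adhesion protein along the internode, at 2.90 ± 0.46, Pllp, a raft protein related to Mal, at 2.63 ± 0.40 and Cnp, a cytoplasmic enzyme of myelin, at 2.41 ± 0.34 (limma, adjusted p 0.008 to 0.018). CSP was lower than Thy for Cadm4 at -2.95 ± 0.46, Mag at -2.58 ± 0.51 and Cnp at -2.11 ± 0.34 (limma, adjusted p 0.010 to 0.036), beside 0.903% of all genes with CSP lower. The median over the 17 was 0.39 for SSC minus CSP (-0.05 over all genes) and -0.20 for CSP minus Thy (-0.04 over all genes). With each mouse as a block, 0 of the 4 passed between SSC and CSP (adjusted p 0.066 to 0.110), and between CSP and Thy the calls were Cadm4, Cnp and Pllp, with Mag at an adjusted p of 0.050. Without SSC -JUN replicate 3 none of the 4 passed, and over the 12 arrays left out in turn their highest adjusted p was 0.051 to 0.076. Cadm4 was lost in 6 of these 12 fits, and Mag between CSP and Thy in 7.

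Mog and Mobp, which mark oligodendrocyte myelin, and Gjb1, a connexin of myelin incisures, lay below the array median in all 12 arrays. Opalin, another oligodendrocyte marker, lay above it in all 12, averaging 8.16 in SSC, 8.30 in CSP and 8.26 in Thy. Of 9 tested genes of myelin lipid synthesis, Aspa, which releases acetate from N-acetylaspartate, was the only call. It stood at 3.33 ± 0.51 for SSC minus CSP (limma, adjusted p = 0.013, and 0.087 with each mouse as a block) and at -3.01 ± 0.51 for CSP minus Thy (adjusted p = 0.014, and 0.056 without Thy -JUN replicate 1). Ugt8a had 4.91 ± 0.98 for SSC minus CSP and did not pass (adjusted p = 0.060).

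**Figure D4:**
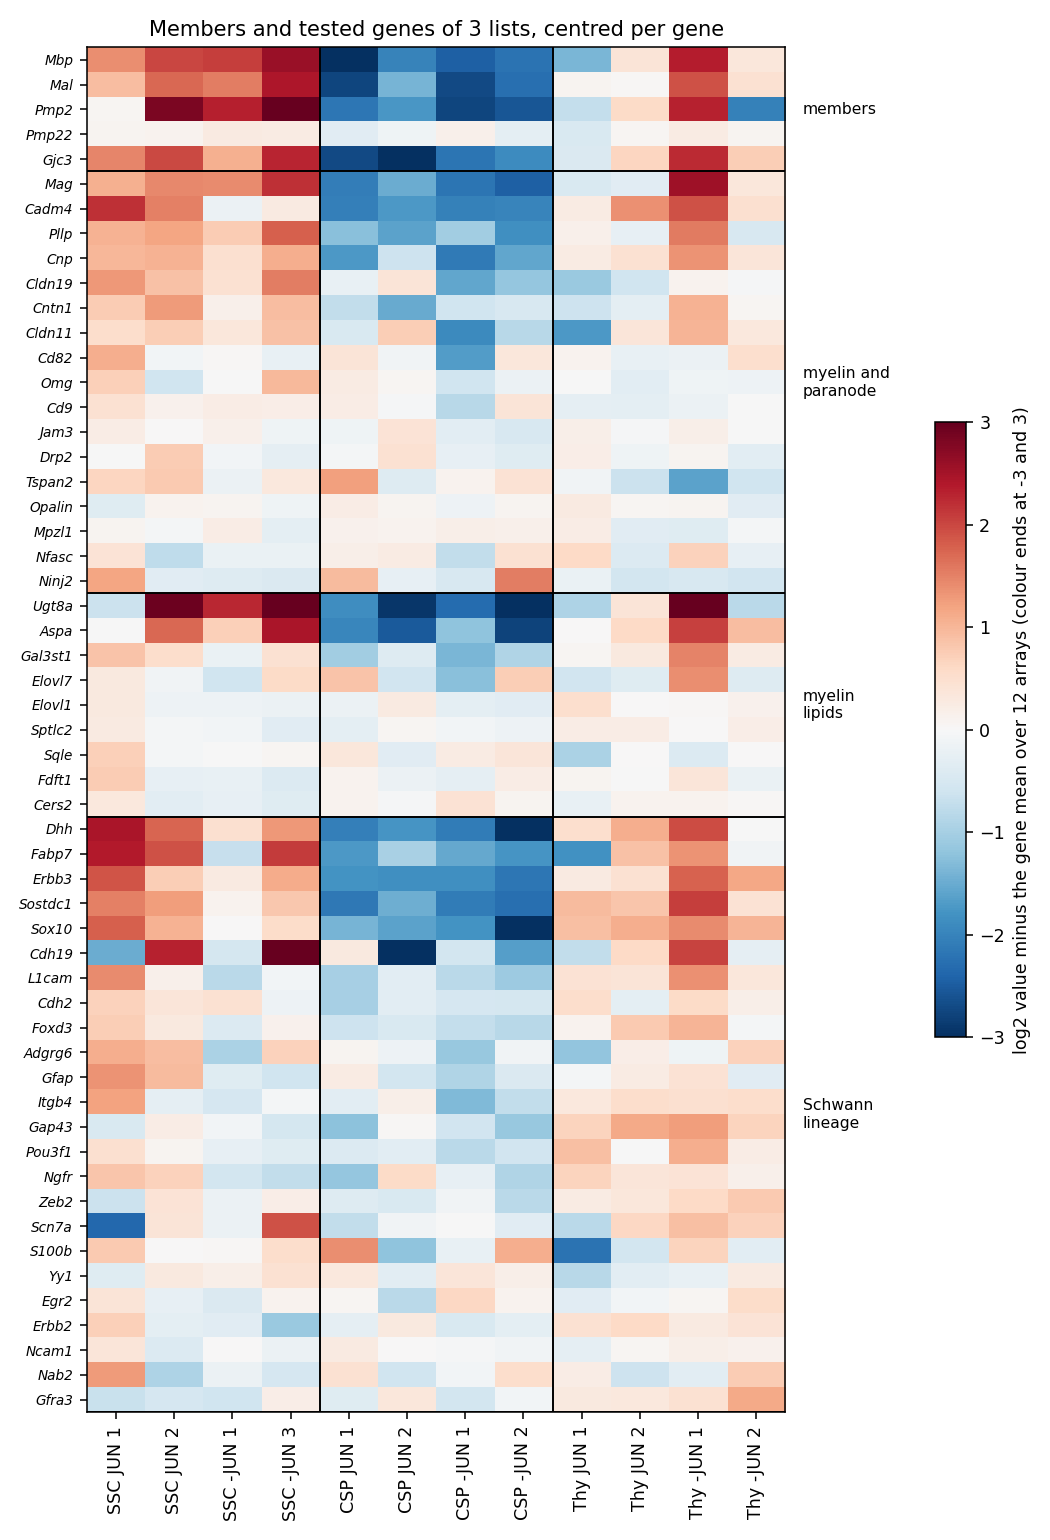
Log2 value minus the gene's mean over the 12 arrays (colour) for the 5 members and the tested genes of the lists of myelin and paranode proteins, myelin lipid synthesis and the Schwann lineage. Columns are arrays, and genes within a list are ordered by SSC minus CSP, so the order itself is no finding. Mbp, Mal, Pmp2 and Gjc3 are blue in all CSP arrays, as are Mag, Cadm4, Cnp, Aspa, Dhh, Erbb3, Sostdc1 and Sox10, while Pmp22 is pale throughout.

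Regulators and signals of the Schwann lineage, 28 listed and 24 tested, held 4 genes past the threshold with SSC above CSP, beside 0.384% of all genes tested. This list too was drawn up with earlier results known, so nothing is read from that share. Dhh, a hedgehog ligand secreted by Schwann cells, stood at 3.86 ± 0.48, Erbb3, their neuregulin receptor, at 2.91 ± 0.38, Sostdc1, a secreted antagonist of BMP and Wnt signals, at 2.91 ± 0.37 and Sox10 at 2.80 ± 0.35 (limma, adjusted p 0.004 to 0.005). These 4 and Gap43, a growth cone protein, passed as lower in CSP than in Thy (limma, adjusted p 0.003 to 0.022), beside 0.903% of all genes. CSP minus Thy was -3.25 ± 0.48 for Dhh, -2.82 ± 0.38 for Erbb3, -3.06 ± 0.37 for Sostdc1, -3.06 ± 0.35 for Sox10 and -1.66 ± 0.30 for Gap43. With all probe sets of a gene averaged, Dhh was at 2.19 for SSC minus CSP and -1.81 for CSP minus Thy, and both calls held. Gap43 was lost without any of 5 single arrays, at an adjusted p of up to 0.084. With each mouse as a block, Dhh alone passed between SSC and CSP (adjusted p = 0.048), the other 3 had 0.061 to 0.066, and all 5 passed between CSP and Thy. The 4 SSC calls were lost without mouse 7, at an adjusted p of 0.067. Not all of the list followed the members. Egr2 averaged 11.65 in SSC, 11.70 in CSP and 11.75 in Thy. Ngfr, the low affinity neurotrophin receptor, averaged 11.85 in SSC, 11.35 in CSP and 12.18 in Thy. S100b, a calcium binding protein of glia, averaged 9.72 in SSC, 9.64 in CSP and 8.77 in Thy. Over the 28 measured genes the mean per array was 9.00 to 9.76 in SSC, 8.47 to 8.72 in CSP and 9.24 to 10.01 in Thy, and the part of Schwann cells in the members' levels was not tested.

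Under JUN, 0 genes of any list passed in limma. In SSC the Schwann lineage genes had a higher mean in JUN arrays for 19 of 24, where 43.7% of all genes were lower. Their median difference was 0.61 (0.08 over all genes). Among them were Gfap, an intermediate filament of non-myelinating glia, at 1.63 ± 0.38, Ngfr at 1.41 ± 0.49 and Sox10 at 1.14 ± 0.44 (limma, adjusted p = 0.690 each). In Thy 21 of 24 were lower, beside 46.4% of all genes, with a median of -0.39 (0.04 over all genes). Without Thy -JUN replicate 1 that median was -0.08, with 14 lower and 10 higher. The median for myelin and paranode genes was 0.09 in SSC (0.08 over all genes), with 13 of 17 higher. It was 0.0067 without SSC JUN replicate 1 (0.030 over all genes), with 9 of 17 higher, and 0.36 without SSC -JUN replicate 3 (0.0037 over all genes). In CSP it was 0.35 (0.07 over all genes), and 0.088 without CSP -JUN replicate 1 (0.061 over all genes). In Thy it was -0.19 (0.04 over all genes), and 0.0027 without Thy -JUN replicate 1 (0.020 over all genes). Mag in Thy stood at -1.84 ± 0.59 (adjusted p = 0.985), with 7.54 and 7.66 in JUN arrays against 10.53 and 8.34 in -JUN arrays.

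Relatives of the members by family were read beside them. Of 13 measured connexins 7 lay below the array median in every array and 5 were tested. Gja1, the widespread connexin of osteoblasts and fibroblasts, averaged 12.98 in SSC, 13.17 in CSP and 12.82 in Thy, without a call. Gja4, a connexin of blood vessels, was lower in SSC than in Thy, the difference being -1.74 ± 0.27 (limma, adjusted p = 0.029, beside 0.32% of all genes with SSC lower) and lower in CSP than in Thy, at -2.02 ± 0.27 (adjusted p = 0.005), and the first was lost with each mouse as a block (adjusted p = 0.123) and in 7 of 12 fits that left out 1 array (up to 0.112). Among 7 tested relatives of Pmp2 none passed, and Fabp7, a fatty acid binding protein of immature glia, was the widest at 2.93 ± 0.73 for SSC minus CSP (adjusted p = 0.181). Emp1, Emp2 and Emp3, the nearest relatives of Pmp22, did not pass, with SSC minus CSP of -0.51 for Emp1, 0.03 for Emp2 and 0.04 for Emp3. Of the 11 tested genes related to Pmp22 and Mal, Pllp was the only call.

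Markers of other cells were read for the same arrays. Olig2, Myrf and Nkx2-2, regulators of oligodendrocytes, lay below the array median in all 12 arrays. Nkx6-2 and Tmem98 of the same list lay above it in all 12, with population means of 9.34 to 9.60 and 11.58 to 11.85. Olig1 was at 11.25 and 8.65 in SSC JUN arrays, against 7.04 and 7.31 in SSC -JUN arrays (limma, adjusted p = 0.690). Gpr17, a receptor of oligodendrocyte precursors, was lower in CSP than in Thy, at -2.23 ± 0.33 (limma, adjusted p = 0.007), and in SSC than in Thy, at -1.84 ± 0.33 (adjusted p = 0.040, and 0.155 with each mouse as a block). The second was lost in 10 of 12 fits that left out 1 array (up to 0.151). Of 9 tested neuron markers 0 passed in any comparison. Their median was -0.94 for CSP minus Thy (-0.04 over all genes). Uchl1 and Nefl lay above the array median in all 12 arrays, with population means of 11.38 to 12.32 and 9.64 to 9.88. Syt1, a synaptic vesicle protein, Nefh and Elavl4 lay below the array median in all arrays. All 7 measured T and B cell markers and all 4 red cell markers did so as well. Pericyte and smooth muscle markers, 8 tested, averaged 10.85 to 11.28 per array in SSC, 10.59 to 10.82 in CSP and 11.85 to 12.53 in Thy, with Thy highest. Rgs5, a regulator of G protein signals in pericytes, Kcnj8, a potassium channel, Mcam, an adhesion protein, and Acta2, smooth muscle actin, were lower in CSP than in Thy (limma, adjusted p 0.001 to 0.027), and Rgs5 was also lower in SSC than in Thy. Acta2 was lost with each mouse as a block (adjusted p = 0.051), and Acta2 and Kcnj8 were each lost in 6 of 12 fits that left out 1 array, at an adjusted p of up to 0.114 for Acta2 and 0.110 for Kcnj8. Perineurial and endoneurial fibroblast markers, 8 tested, averaged 9.04 to 10.00 in SSC, 9.03 to 9.83 in CSP and 9.26 to 9.62 in Thy, with 0 calls between populations. Of 6 tested endothelial markers Esam, a junction protein, was the only call, lower in SSC than in Thy at -1.61 ± 0.28 (limma, adjusted p = 0.038) and in CSP than in Thy at -1.67 ± 0.28 (adjusted p = 0.014). The first was lost with each mouse as a block (adjusted p = 0.140) and in 9 of 12 fits that left out 1 array (up to 0.151), and the second in 5 of these 12 (up to 0.065). With that block Tek, an angiopoietin receptor, also passed between CSP and Thy (limma, adjusted p = 0.048). None of 7 macrophage and neutrophil, 8 skeletal muscle and 4 epithelial markers passed between populations. The part of any of these cells in the members' levels was not tested.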

How the data were processed

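Gene expression was measured with 1 array for each of 12 samples of sorted mouse bone cells, 2 in each of 6 groups. The authors deposited log2 values for each probe set, made with RMA per the submitters' processing notes, which lie between 3.20 and 15.99. RMA brings arrays to a common distribution, which hides changes of total RNA. The version of RMA was not given in the sources used here. Precision is limited by the number of arrays.

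Of 45101 probe sets 64 controls were left out, and platform annotation gave 1 symbol to 34945. Probe sets above the array median in at least 2 arrays were kept, and a gene was read from its brightest one on average. In limma 3.58.1 (R 4.3.3) JUN effects were fitted in a model of 6 group means (6 residual degrees of freedom) and populations in a model of population and arm (8), two-sided, with Benjamini-Hochberg adjustment over 12516 genes and a threshold of 0.05. The fits were tested on simulated data. Errors with differences are standard errors.

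The members and the 18 gene lists were chosen with earlier results of these data known. Members, and list genes past the threshold or of lowest p, are named by rule, with the genes of most similar pattern. Arrays whose titles share a mouse were read as 1 animal, which pairs populations. Deviations of such arrays from group means correlated at -0.21 to 0.43 over 10 pairs, of which 6 values are distinct because the deviations of 2 arrays of a group mirror each other. Nothing says that samples of a group came from separate litters, so a p-value measures only how these samples vary, which may be technical. Alternatives covered the filter, the averaging of a gene's probe sets, centring, eBayes settings, blocks and leaving out arrays or mice.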

Additional observations from a re-analysis of the deposited data

How the results depend on the processing

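No alternative carried a member's JUN effect past the threshold. Changes of the filter, averaging of probe sets, centring, eBayes settings or block reversed none. Other single probe sets were not put through the fit. Among the 6 of Mbp that passed the filter, JUN minus -JUN ran from -1.11 to 0.39 in CSP. In Thy it ran from -1.83, that of the tested probe set, to -0.69. Leaving out an array or a mouse reversed Gjc3 in SSC (-0.56 to 0.64), Mbp (-0.79 to 0.33), Mal (-0.26 to 1.08) and Pmp22 (-0.38 to 0.063) in CSP, and Pmp2 in Thy (-2.36 to 1.97) and on average (-1.13 to 0.37). The number of genes passing for JUN was 0 in each fit with all arrays. On leaving out an array or a mouse it ran from 0 to 282 in SSC, 0 to 2 in CSP, 0 to 175 in Thy and 0 to 495 on average, each highest count but that of CSP (without mouse 4) without mouse 7, when JUN rests on mouse 4 alone. Between populations these ranges were 7 to 62 for SSC against CSP, 3 to 304 for SSC against Thy and 17 to 155 for CSP against Thy, beside 54, 49 and 124 with all arrays. SSC against Thy gave 24 genes without the filter, 75 with probe sets averaged and 74 with arrays centred on their median. With each mouse as a replicate block, SSC against CSP gave 8 genes, SSC against Thy 4 and CSP against Thy 125, and SSC minus CSP was 4.30 for Mbp and 4.10 for Gjc3. With the replicate number as a block in the JUN fit, 0 genes passed and Mbp in Thy stayed at -1.83. The causes were not tested. Of the alternatives, the medians of gene lists without single arrays were chosen after seeing the data.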
